A study of Mus musculus with 6 samples.

Results

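The 34 G2/M and mitosis genes described here encode the machinery that takes a cell from the end of DNA synthesis through cell division. They were chosen by name, as the rows of the deposited gene count table whose symbol equals a member of the list. All 34 were found among the 54532 gene rows, each in 1 row annotated as protein-coding, and all 34 passed the filter on low counts. The selection itself is by gene symbol and uses no measured value, although the list was drawn up with earlier results of these data known.

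RNA from mouse CD4 T cells was sequenced after 48 hours of culture on coated antibodies to CD3 and CD28, which stand in for antigen and costimulation. The cells came from spleen and lymph nodes of mice on the C57BL/6 background. The 3 control libraries, numbered 1, 2 and 4, carry the genotype iCD4-PRMT5fl/fl, in which Prmt5 is flanked by loxP sites, and the 3 knockout libraries, numbered 1, 4 and 5, carry iCD4-PRMT5delta/delta, in which it is deleted. The title of knockout 4 ends in R2, which the labels do not explain. Prmt5 encodes an arginine methyltransferase. The promoter behind the iCD4 prefix, the way deletion was brought about, the age of the mice and whether animals were pooled are not stated in the labels. The series calls the libraries biological replicates.

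Prmt5 read 134, 133 and 98.2 CPM (the reads of a gene scaled to the size of its library) in controls 1, 2 and 4. It read 41.1, 34.2 and 36.7 CPM in knockouts 1, 4 and 5. Gene counts ran from 29623513 to 39832588 per library. The column names carry 2 tags that split the libraries into a batch A (controls 1 and 2, knockout 1) and a batch B (control 4, knockouts 4 and 5), and the labels do not say what the tags mean. Markers of CD4 T cells summed to 1216 to 1310 CPM in controls and 1128 to 1450 CPM in knockouts, with Lck alone at 345 to 459 CPM. The 8 B cell markers summed to 4.43 to 6.15 CPM in controls, but to 22.3, 5.33 and 23.9 CPM in knockouts 1, 4 and 5, and the 6 macrophage and monocyte markers to 3.91 to 7.53 CPM in controls and 10.3, 5.50 and 20.03 CPM in those knockouts. The CD8 T cell sum of knockout 1, and the NK cell and neutrophil sums of knockout 5, lay inside the range of the controls. The 6 dendritic cell markers summed to 3.24 to 4.87 CPM in controls and 7.54, 3.88 and 10.4 CPM in knockouts 1, 4 and 5. The 5 erythroid markers summed to 0.674 to 0.878 CPM in controls and 1.585, 0.811 and 1.78 CPM in those knockouts. Knockouts 1 and 5 therefore stand apart from the other 4 libraries, and results below are given with and without them where they matter. Of 6 tested B cell markers 1 (Pax5) rose in knockouts in the fit with batch as a term, and no tested marker of CD4 T, CD8 T, NK, dendritic or erythroid cells was called (no neutrophil marker passed the filter). Cd79b, the most abundant B cell marker, read 1.68, 1.18 and 2.72 CPM in controls and 4.37, 2.78 and 7.93 CPM in knockouts, and Lyz2, the most abundant macrophage marker, 1.71, 5.08 and 1.17 CPM against 5.29, 1.77 and 12.5 CPM. In the other lists the most abundant marker read 6.31 to 17.5 CPM for Cd8b1 (CD8 T cells), 14.7 to 65.1 CPM for Eomes (NK cells), 1.85 to 4.88 CPM for Zbtb46 (dendritic cells), 0.0778 to 0.507 CPM for Mpo (neutrophils) and 0.592 to 1.497 CPM for Klf1 (erythroid cells), while the haemoglobin genes Hba-a1 and Hbb-bs were at 0 in all 6.

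A cell enters mitosis when Cdk1, bound to cyclin A or cyclin B, becomes active. The chromosomes then condense, kinetochores catch spindle microtubules, and a checkpoint holds the cell until every chromosome is attached, after which the anaphase-promoting complex marks cyclin B and securin for destruction. Most of these genes are transcribed late in the cell cycle under B-Myb, FoxM1 and the MuvB complex, which binds a short element in their promoters, the cell cycle homology region, often with boxes for the factor NF-Y upstream of it. Resting T cells hold these genes low and switch them on as they begin to divide after antigen stimulation.

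Measured per length, the 34 genes spanned a wide range of levels in the activated cells. Top2a, which encodes the topoisomerase that untangles sister chromatids, was the highest, with a mean of 279 CPM per kilobase and a range of 208 to 362 over the 6 libraries. Mki67, the gene of the proliferation marker Ki-67 that coats mitotic chromosomes, followed at 157 CPM per kilobase, between 121 and 179.8. Ccna2 (cyclin A2) at 102, Ccnb1 (cyclin B1) at 86.2, Cdc20 (an activator of the anaphase-promoting complex) at 81.8 and Kif11 (the motor that pushes spindle poles apart) at 72.3 CPM per kilobase came next. The lowest means belonged to Anln at 14.5, Cdc25c at 12.7, Mybl2 at 11.3 and Foxm1 at 8.30 CPM per kilobase, so that the 2 genes of transcription factors lay at the bottom of the order. In that order 31 of the 33 pairs of neighbours had ranges that overlap over the 6 libraries, and only the steps from Top2a to Mki67 and from Mki67 to Ccna2 left a gap. The fewest reads behind any member in any library were 571 and the most 72994. Genes on the opposite strand overlap the exons of several members, Pdzd11 over 15.1% of the exon bases of Kif4, Exosc9 over 12.5% of Ccna2, Rccd1 over 11.1% of Prc1 and Gm44985 over 7.09% of Plk1, and the strand setting of the counting is not stated in the labels.

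**Figure D1:**
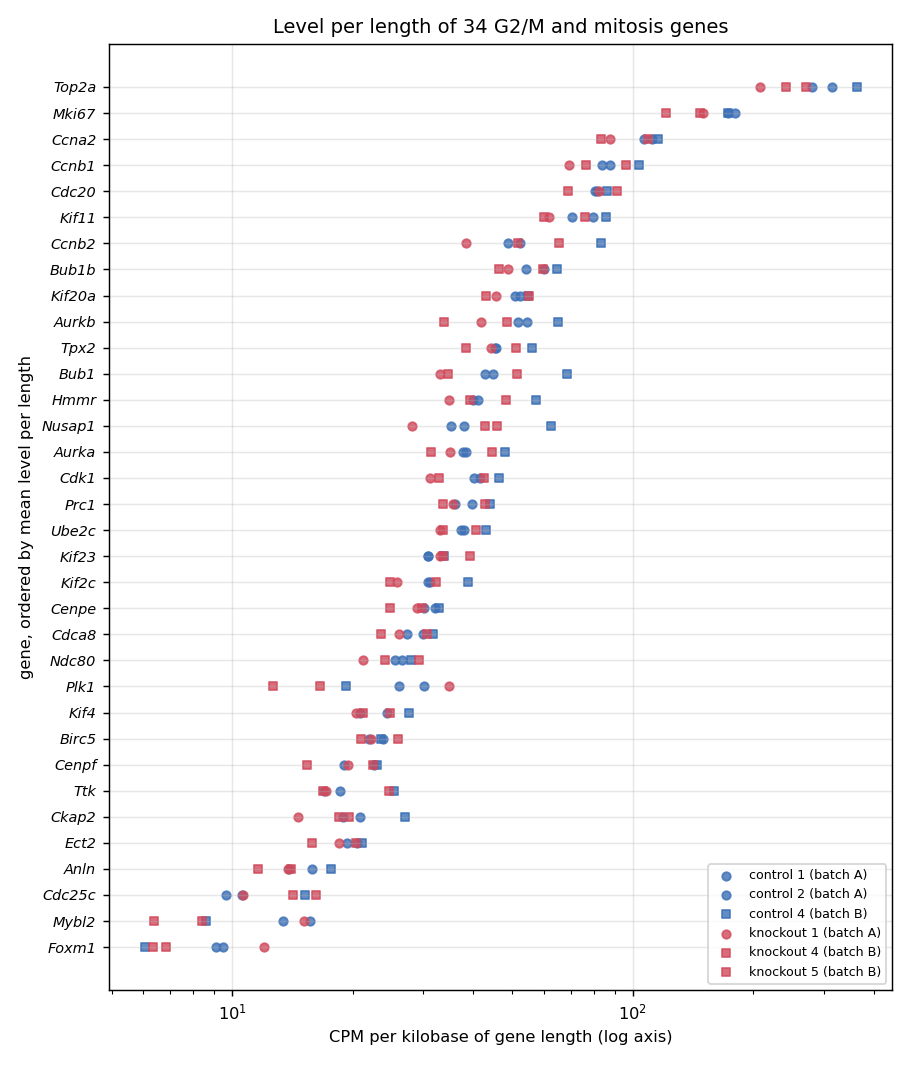
Level of each of the 34 genes in CPM per kilobase of gene length (horizontal log axis) in every library, ordered by mean level, with blue for controls, red for knockouts, circles for batch A and squares for batch B. Top2a (mean 279) and Mki67 (mean 157) stand clear on the right, and Foxm1 (mean 8.30) is the lowest.

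The promoters of these genes share sequence. A RefSeq window (build GRCm38.p6) of 250 bases before to 50 bases after the transcription start was on hand for 28 of the 34 genes, in 30 windows, since Ect2 and Prc1 have a pair each. The cell cycle homology region, searched as TTTGAA on both strands, was present for 22 of the 28 genes (78.6%), against 20.2% of all 27025 genes with a window. The core of the NF-Y box, searched as CCAAT on both strands, was also present for 22 of the 28 (78.6%), against 41.1% of all genes. Both motifs together occurred for 19 of 28 (67.9%), against 7.97%, and neither for 3 (Birc5, Mybl2 and Nusap1), against 54.3%. TTTGAA began within 50 bases before to 44 bases after the start for 19 of 28 members (67.9%), against 5.72% of all genes. A CCAAT that began 20 to 60 bases before a TTTGAA was found for 15 of 28 (53.6%), against 1.57%, over a spacing chosen after the matches had been seen. These are matches of letters and not sites of binding. The genes without a window here are Ccna2, Aurkb, Tpx2, Kif20a, Cdc25c and Foxm1.

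**Figure D2:**
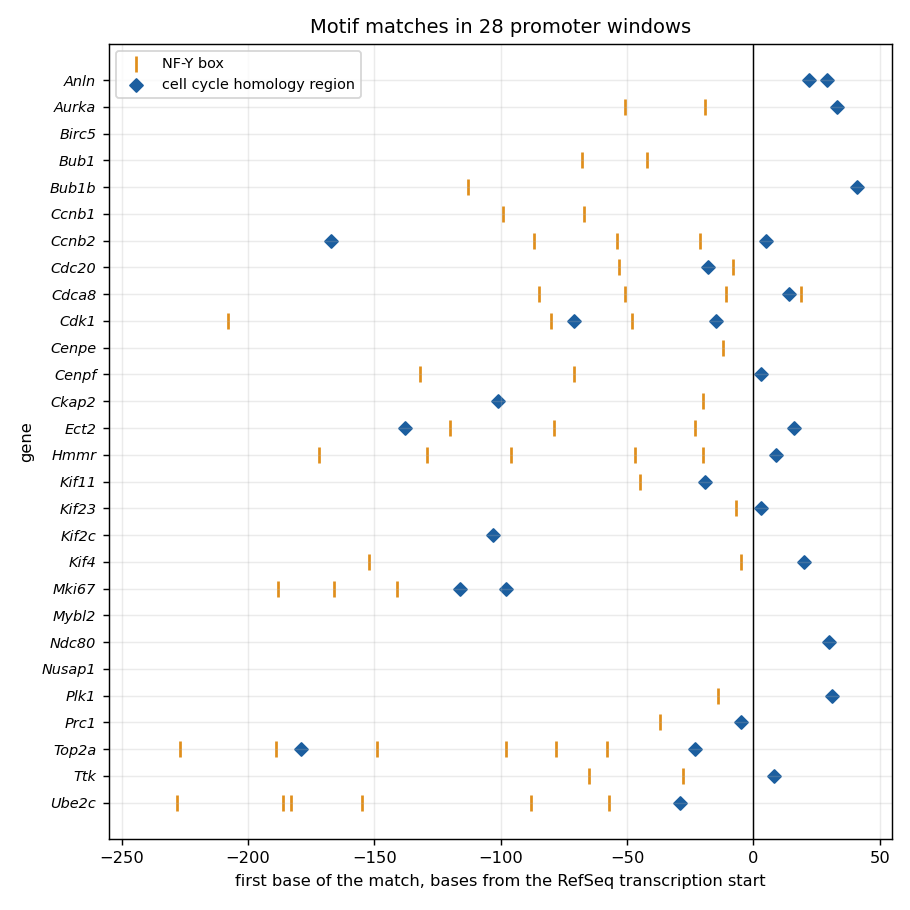
Position of the first base of each motif match, in bases from the RefSeq transcription start (horizontal axis), for the 28 genes with a promoter window (rows), with blue diamonds for the cell cycle homology region and orange bars for the NF-Y box. Most diamonds lie near the start, within 50 bases before to 44 after it for 19 genes, with bars to their left.

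The stretches that follow run from 120 bases before to 30 bases after the start, 5′ to 3′ on the strand of the gene, with matches to TTTGAA or CCAAT, on either strand, in capitals (on the opposite strand they read TTCAAA and ATTGG). The first 3 belong to the genes that fell in the knockouts, Top2a (chr11:99024160-99024309, minus strand), Ckap2 (chr8:22185790-22185939, minus strand) and Nusap1 (chr2:119618178-119618327, plus strand). Ccnb2 (chr9:70421525-70421674, minus strand) and Cdk1 (chr10:69352883-69353032, minus strand) show the arrangement of boxes with a homology region near the start. Cdc20 (chr4:118437314-118437463, minus strand) and Kif23 (chr9:61946770-61946919, minus strand) carry both motifs and differed little between the genotypes, and Mybl2 (chr2:163054515-163054664, plus strand) carries neither.
Top2a: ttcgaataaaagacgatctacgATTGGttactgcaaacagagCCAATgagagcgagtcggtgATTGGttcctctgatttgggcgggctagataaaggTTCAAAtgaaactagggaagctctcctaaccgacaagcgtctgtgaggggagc
Ckap2: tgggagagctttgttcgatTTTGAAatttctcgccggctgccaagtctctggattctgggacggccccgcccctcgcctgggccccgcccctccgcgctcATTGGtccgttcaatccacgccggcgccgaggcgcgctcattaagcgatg
Nusap1: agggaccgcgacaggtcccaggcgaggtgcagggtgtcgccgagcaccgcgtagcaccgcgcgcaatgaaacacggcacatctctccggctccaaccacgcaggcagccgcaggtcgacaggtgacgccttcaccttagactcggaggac
Ccnb2: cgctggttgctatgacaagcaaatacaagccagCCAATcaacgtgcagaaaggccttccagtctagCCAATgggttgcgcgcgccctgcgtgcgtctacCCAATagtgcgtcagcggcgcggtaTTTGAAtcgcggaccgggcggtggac
Cdk1: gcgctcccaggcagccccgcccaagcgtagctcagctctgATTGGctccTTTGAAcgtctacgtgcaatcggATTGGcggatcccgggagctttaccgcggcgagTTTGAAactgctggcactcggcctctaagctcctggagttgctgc
Cdc20: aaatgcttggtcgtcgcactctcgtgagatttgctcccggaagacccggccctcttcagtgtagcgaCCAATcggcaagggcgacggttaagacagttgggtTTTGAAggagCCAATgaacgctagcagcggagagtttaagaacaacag
Kif23: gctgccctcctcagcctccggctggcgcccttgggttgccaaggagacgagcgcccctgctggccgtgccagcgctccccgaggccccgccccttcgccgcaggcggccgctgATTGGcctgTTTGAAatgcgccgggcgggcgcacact
Mybl2: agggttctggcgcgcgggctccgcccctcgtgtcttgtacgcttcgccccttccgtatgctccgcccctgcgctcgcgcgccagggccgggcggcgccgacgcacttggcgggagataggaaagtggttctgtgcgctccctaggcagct

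In Top2a the match to the homology region began at -23 from the start, on the opposite strand, with boxes at -58, -78 and -98. In Ccnb2, 3 boxes at -21, -54 and -87 preceded a homology region at 5 bases after the start. Ckap2 held a box at -20 and its only TTTGAA farther upstream, at -101.

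In the authors' deposited table all 34 genes were higher in activated than in unstimulated cells of both genotypes. The unstimulated libraries are not among the samples used here, so this rests on the comparisons the authors deposited, which give rest over activated as a log2 fold change. Which libraries went into them is not given by the column names, and they are not taken as independent of the genotype comparison. In the authors' deposited table the values for control cells ran from -5.21 to -2.60 with a median of -4.29, and all 34 had an adjusted p under 0.05, where 27.7% of the genes in that table were higher in activated cells at that threshold. For knockout cells the authors' deposited table gives -4.92 to -2.64 with a median of -4.27, again with all 34 past 0.05, where 25.8% of genes were higher in activated cells at that threshold. The widest step in control cells was that of Aurkb, the kinase of the chromosomal passenger complex, at -5.21 in the authors' deposited table, against -4.67 in knockout cells. Ndc80, which grips microtubules at the kinetochore, had the narrowest step in both in the authors' deposited table, -2.60 and -2.64. Whether the step differed between the genotypes was not tested. Between unstimulated control and unstimulated knockout cells, the log2 fold changes of the authors' deposited table were at most 1.4e-05 in size for every member. Of the 34, 0 were past 0.05 (0.0101% of genes lower and 0.00503% higher in knockouts). The median over all 19882 genes of that comparison was 0 as well, and how these values were made is not stated. They therefore do not show that the members were equal at rest.

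Between the genotypes in activated cells, the mitotic genes lay slightly lower in the knockouts as a group, and 3 of the 34 passed the test once batch was a term. The 34 genes summed to 7286, 7786 and 8567 CPM in controls 1, 2 and 4, a mean of 7880 ± 645.6 (SD, n = 3), and to 6309, 7396 and 5999 CPM in knockouts 1, 4 and 5, a mean of 6568 ± 733.6 (SD, n = 3). Knockout 4 lay above control 1, so the sums overlap. Top2a and Mki67 made up 39.15% to 44.35% of the sum, and without them it was 4085, 4333 and 4940 CPM in the control group and 3717, 4500 and 3526 CPM in the knockout group. In bulk RNA, fewer cells in G2 and mitosis and less of this RNA per cell cannot be told apart.

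In the fit on genotype alone, edgeR's quasi-likelihood test with Benjamini-Hochberg adjustment called 0 of the 34 genes and 0 of all 15685 genes tested (0%). At an unadjusted p under 0.05 that test passed 2 members, Aurkb and Top2a, both lower in the knockouts, where 4.79% of all genes were lower at that level. DESeq2 and limma-voom on genotype alone also called 0 members. The members' median log2 fold change, knockout over control, was -0.18, against 0.01 over all genes, and 31 of 34 were negative, against 49.0% of all genes. The members' median log2 CPM per library varied within the groups with a pooled SD of 0.18. All 34 genes were read in the same 6 libraries, so counts of signs, here and below, are not counts of independent observations. All 3 knockouts lay below all 3 controls for 4 of the 34 genes (Aurkb, Cenpe, Top2a and Mki67), where 8.68% of all genes did, and above them for 0 of 34, where 9.35% of all genes did.

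With batch as a term, the median of the members was -0.20, against 0.02 over all genes, and 31 of 34 were again negative, against 47.9%. The test called 3 members lower (Top2a, Nusap1 and Ckap2), where 3.63% of all genes were lower, and 0 higher, where 2.87% were. At an unadjusted p under 0.05 it passed 13 members lower, where 14.1% of all genes were, in addition to Foxm1 on the higher side, where 15% of all genes were, with standard errors of 0.09 to 0.18 over the members. Within batch A alone the median was -0.16 with 28 of 34 negative, where 50.1% of all genes were. Within batch B alone it was -0.29 with 32 of 34 negative, where 47.3% of all genes were. No member was called inside either batch by edgeR, where 0% of all genes were (at an unadjusted p under 0.05 it passed 4 members in batch A, where 16.6% of all genes passed, and 9 in batch B, where 22.1% did), and the genotype effect differed between batches for 0 of 34 (0% of all genes), with Plk1 the only member at an unadjusted p under 0.05, where 6.35% of all genes were.

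The 3 knockouts were not alike in how far their mitotic genes lay below the controls of their batch. The median log2 difference of the 34 genes was -0.16 for knockout 1, -0.12 for knockout 4 and -0.49 for knockout 5, with 28, 27 and 33 genes negative. Of all genes tested, 50.1%, 49.1% and 47.7% were negative in knockouts 1, 4 and 5. Knockout 5, the lowest, is also a library with raised B cell and macrophage markers. Knockout 4, the nearest to its control, had sums of these markers within the range of the controls. Against control 4, its median log2 difference was 0.20 for the tested B cell markers and 0.60 for those of macrophages and monocytes. Knockout 1 had raised markers too, with a B cell sum of 22.3 CPM against 23.9 CPM in knockout 5. Its macrophage and monocyte sum was 10.3 CPM against 20.03 CPM in knockout 5. Yet its median lay nearer to that of knockout 4. Whether the markers and the mitotic genes move together was not tested. Without knockouts 1 and 5, a setting added after the data had been seen, 1 knockout remains. With batch as a term it is then set against control 4 alone, and the spread comes only from controls 1 and 2, so the values are given with no calls. The median was -0.11 with 27 of 34 negative, and on genotype alone it was 0.02 with 16 negative.

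**Figure D3:**
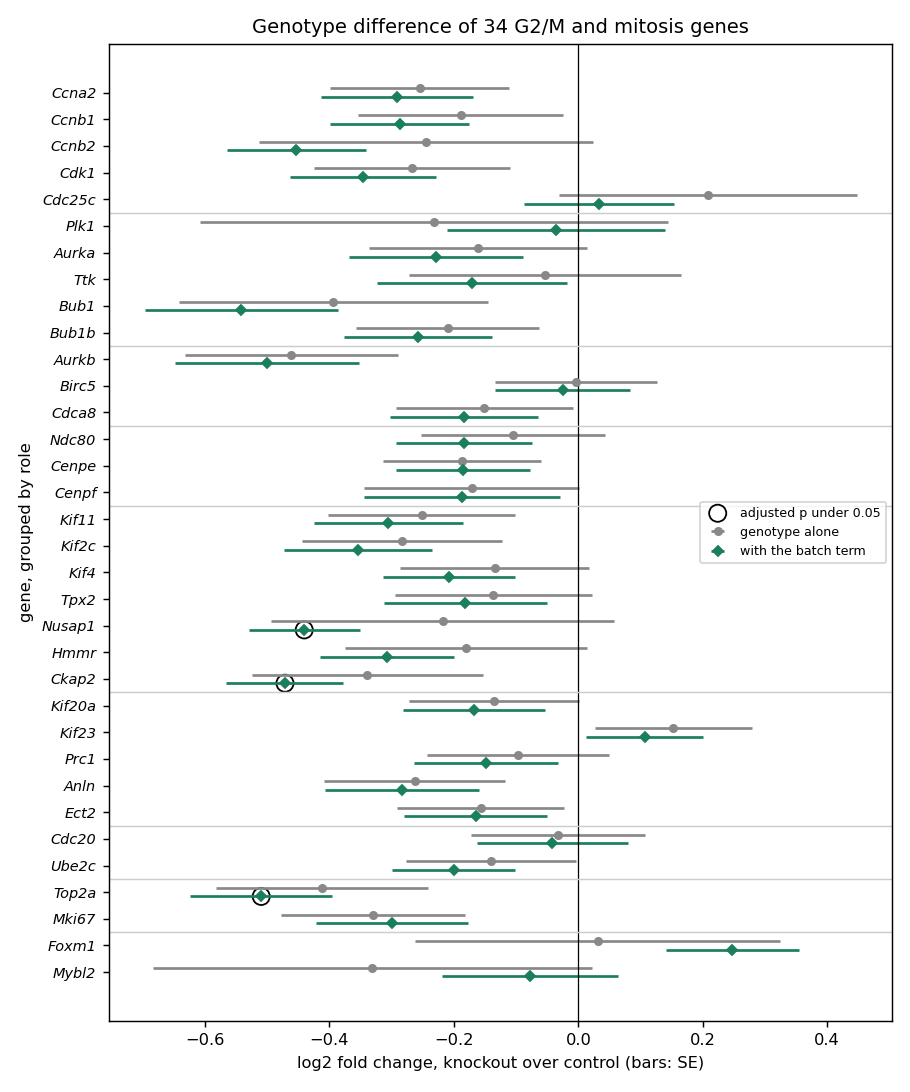
Log2 fold change, knockout over control (horizontal axis), of the 34 genes grouped by role (rows), with grey circles for the fit on genotype alone, green diamonds for the fit with batch as a term and bars for the standard error. Of the 34 diamonds 31 lie left of 0, and only those of Nusap1, Ckap2 and Top2a, ringed in black, had an adjusted p under 0.05 by edgeR's quasi-likelihood test.

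Of the pair of genes for chromosome structure, Top2a fell and Mki67 lay lower without passing the test. Top2a (chromosome 11, positions 98992943 to 99024189, minus strand) read 1461, 1644 and 1892 CPM in controls 1, 2 and 4 and 1085, 1414 and 1258 CPM in knockouts 1, 4 and 5. Every knockout lay below every control. The log2 fold change with batch as a term was -0.51 (SE 0.11, adjusted p = 0.0441, edgeR), with -0.52 inside batch A and -0.50 inside batch B, and on genotype alone it was -0.41 (adjusted p = 0.429, edgeR). Mki67 read 1741, 1809 and 1735 CPM in controls and 1507, 1482 and 1215 CPM in knockouts, again without overlap, with a log2 fold change of -0.30 (SE 0.12, adjusted p = 0.152, edgeR with the batch term).

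All 7 genes of spindle motors and microtubule proteins were negative in both fits, where 49% (genotype alone) and 47.9% (batch term) of all genes were. With batch as a term 2 of the group fell, where 3.63% of all genes did. Ckap2, which encodes a spindle microtubule protein (chromosome 8, positions 22168160 to 22185819, minus strand), read 49.0, 53.9 and 69.9 CPM in controls and 37.9, 50.8 and 48.0 CPM in knockouts. Nusap1, the gene of a protein that bundles microtubules near chromosomes (chromosome 2, positions 119618298 to 119651244, plus strand), read 124, 134 and 221 CPM in controls and 98.9, 162 and 151 CPM in knockouts. For both genes the groups overlap over all libraries, and inside each batch every knockout lay below every control. The log2 fold change with batch as a term was -0.47 for Ckap2 (SE 0.09, adjusted p = 0.0366, edgeR) and -0.44 for Nusap1 (SE 0.09, adjusted p = 0.0381, edgeR). On genotype alone it was -0.34 and -0.22 for these genes. Kif11, the most abundant of the group, read 339, 383 and 414 CPM in controls and 298, 366 and 289.7 CPM in knockouts, with a log2 fold change of -0.31 (adjusted p = 0.143, edgeR with the batch term). The other 4, Kif2c (a kinesin that shortens microtubules), Kif4 (a chromosome-bound kinesin), Tpx2 (the activator of Aurora A) and Hmmr (a spindle-pole protein), had values of -0.35, -0.21, -0.18 and -0.31 with the batch term and did not pass. The promoters printed above differ within this group, since Ckap2 holds both motifs and Nusap1 neither.

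The calls of these 3 genes depended on single libraries. With control 1, control 2, control 4 or knockout 1 left out, 0 members were called lower, where 90, 2, 0 and 0 of all genes were. Control 4 is the only control of batch B and knockout 1 the only knockout of batch A. Without either of them, 1 batch holds no genotype contrast. Without knockout 5 it was 4 members (Bub1, Aurkb, Nusap1 and Ckap2), where 556 of 16181 genes were lower. Without knockout 4 it was 9 members, where 994 of 16180 genes were lower. With all 6 libraries, DESeq2 called 6 members lower, where it called 1271 of 15685 genes lower. For edgeR without the filter on low counts it was 8 members, where 1392 of 35183 genes were lower. With libraries scaled to ERCC spike-ins, RNAs added in fixed amounts, edgeR called 0 members with all 34 values negative, where 316 genes were lower. The spike-ins took 0.846%, 0.566% and 1.04% of counts in controls 1, 2 and 4 and 1.255%, 1.01% and 1.35% in knockouts 1, 4 and 5, and that scaling moved the median of all genes from 0.02 to -0.44. In each of these fits the log2 fold changes of Top2a, Nusap1 and Ckap2 stayed negative. Reads shared with a neighbour could touch Nusap1, of which 4.24% of exon bases overlap Oip5 on the opposite strand, and Top2a, of which 1.35% overlap a small nucleolar RNA gene on the same strand.

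None of the 5 genes of the cyclins, Cdk1 and Cdc25c passed the edgeR test. With the batch term 4 were lower at an unadjusted p under 0.05, where 14.1% of all genes were. Ccnb2 (cyclin B2) came nearest, with 74.7, 79.9 and 128 CPM in controls 1, 2 and 4 and 58.7, 100.3 and 79.0 CPM in knockouts 1, 4 and 5. The groups overlap, since control 4 and knockouts 4 and 5, all of batch B, were higher than their counterparts in batch A. Its log2 fold change was -0.45 (SE 0.11, adjusted p = 0.0530, edgeR with the batch term) and -0.25 on genotype alone. Ccna2 read 316, 331 and 343 CPM in controls and 261, 323 and 247 CPM in knockouts, with a log2 fold change of -0.29 (adjusted p = 0.160, edgeR with the batch term). Cdk1 at -0.35 and Ccnb1 at -0.29 lay on the same side, and Cdc25c, the gene of the phosphatase that switches Cdk1 on, was at 0.03, and at -0.43 under ERCC scaling. Ccnb1 and Ccnb2 have annotated pseudogenes, Ccnb1-ps and Ccnb2-ps, which could take a part of their reads.

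The 5 mitotic kinases and checkpoint kinases were all negative in both fits, where 49% (genotype alone) and 47.9% (batch term) of all genes were. None passed the edgeR test. With the batch term 1 (Bub1) was lower at an unadjusted p under 0.05, where 14.1% of all genes were. Bub1, a kinase of the spindle checkpoint, had the lowest value of all 34 genes with the batch term, -0.54 (SE 0.16, adjusted p = 0.0729, edgeR). It read 146, 153 and 235 CPM in controls and 113, 176 and 118 CPM in knockouts, so knockout 4 lay above controls 1 and 2. Bub1b (BubR1, which holds back Cdc20) read 199, 220.4 and 238 CPM in controls and 179.5, 218 and 169.8 CPM in knockouts, at -0.26 (adjusted p = 0.196, edgeR with the batch term). Aurka (the spindle-pole kinase Aurora A) at -0.23, Ttk (Mps1, which starts the checkpoint) at -0.17 and Plk1 (polo-like kinase) at -0.04 were smaller. Plk1 pointed opposite ways in the batches, 0.31 inside batch A and -0.39 inside batch B (unadjusted p of the difference 0.0409, edgeR).

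Of the chromosomal passenger complex, Aurkb had the lowest value on genotype alone, -0.46 (unadjusted p = 0.0297, adjusted p = 0.370, edgeR). It read 101, 106 and 127 CPM in controls and 81.5, 94.7 and 65.9 CPM in knockouts, with no overlap, and its log2 fold change with batch as a term was -0.50 (SE 0.15, adjusted p = 0.0774, edgeR). The other 2 genes of the complex were nearer 0, Cdca8 (borealin) at -0.18 and Birc5 (survivin) at -0.03. At the kinetochore, Cenpe, the motor that carries chromosomes to the spindle equator, read 238, 254 and 259 CPM in controls and 229, 236 and 196 CPM in knockouts, without overlap, at -0.19 (adjusted p = 0.289, edgeR with the batch term). Ndc80 was at -0.18 and Cenpf at -0.19, neither past the threshold.

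Of the 5 genes of the central spindle and cytokinesis, 4 were negative in both fits, where 49% (genotype alone) and 47.9% (batch term) of all genes were. None passed the edgeR test, and 0 did at an unadjusted p under 0.05. With the batch term, 14.1% of all genes were lower and 15% higher at that level. Kif23, the kinesin of centralspindlin, was at 0.15 in the fit on genotype and at 0.11 once batch was a term (adjusted p = 0.486, edgeR), and negative under ERCC scaling (-0.43 and -0.35). Anln (anillin, the scaffold of the contractile ring) read 63.9, 73.0 and 81.1 CPM in controls and 63.6, 64.7 and 53.5 CPM in knockouts, at -0.28 (adjusted p = 0.176, edgeR with the batch term). Kif20a, a kinesin of the central spindle and the most abundant of the group, read 182, 187 and 195 CPM in controls and 163, 197 and 154 CPM in knockouts, with knockout 4 above every control. Prc1, which crosslinks antiparallel microtubules, and Ect2, which activates RhoA at the division plane, were at -0.15 and -0.16. The pair that works with the anaphase-promoting complex also overlapped: Cdc20 read 146, 145 and 154 CPM in controls and 147, 164 and 124 CPM in knockouts, and Ube2c, its ubiquitin-conjugating enzyme, 81.7, 82.9 and 94.3 CPM against 72.4, 88.8 and 73.7 CPM. Their log2 fold changes were -0.04 and -0.20, with adjusted p of 0.849 and 0.222 (edgeR with the batch term), and 22.8% of the exon bases of Ube2c overlap Tnnc2 on the opposite strand.

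Of the 2 genes of transcription factors that drive this programme, neither passed the test. Foxm1 read 44.2, 42.3 and 28.1 CPM in controls 1, 2 and 4 and 55.9, 31.8 and 29.4 CPM in knockouts 1, 4 and 5, and inside each batch every knockout lay above its controls. Its log2 fold change with batch as a term was the highest of the 34, 0.25 (SE 0.11, unadjusted p = 0.0494, adjusted p = 0.171, edgeR), and on genotype alone it was 0.03, with -0.21 and -0.62 under ERCC scaling. Mybl2 (B-Myb) read 57.0, 48.9 and 31.4 CPM in controls and 55.1, 30.8 and 23.3 CPM in knockouts, at -0.08 with the batch term and -0.33 on genotype alone, neither past the threshold.

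Batch was called for 9 of the mitotic genes, where genotype was called for 3. Over all genes, too, batch was called more often than genotype (3.63% lower and 2.87% higher in knockouts). With genotype as a term, 6 of the 34 genes were higher in batch B, where 15.7% of all genes were, and 3 were lower, where 16.5% of all genes were. The 6 were Nusap1 at 0.72, Ccnb2 at 0.67, Cdc25c at 0.55, Bub1 at 0.51, Hmmr at 0.42 and Ckap2 at 0.41 on the log2 scale, batch B over batch A, with adjusted p between 0.00230 and 0.0391 (edgeR). The 3 that were lower were Plk1 at -0.90, Mybl2 at -0.89 and Foxm1 at -0.75, with adjusted p of 0.00881, 0.00450 and 0.00330 (edgeR). Both genes of transcription factors thus lay lower in batch B, while the median of the 34 was 0.16, against 0.02 over all genes (-0.16 against -0.30 under ERCC scaling). Nusap1 and Ckap2, which fell in the knockouts, were among the genes higher in batch B, which holds 2 of the 3 knockouts.

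**Figure D4:**
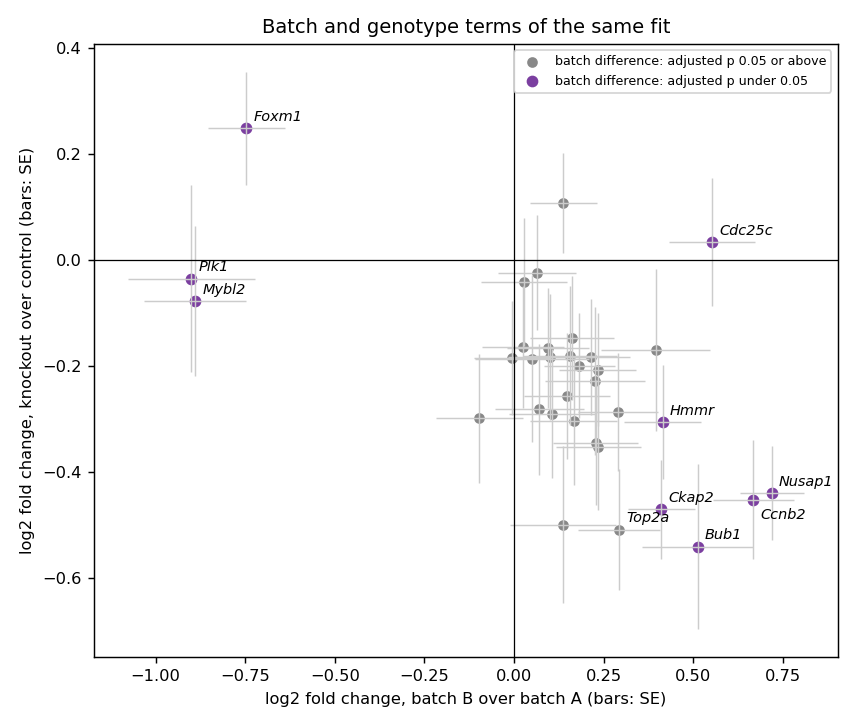
Log2 fold change of batch B over batch A (horizontal axis) against that of knockout over control (vertical axis) from the same fit, for the 34 genes, with bars for the standard error and purple for the 9 genes whose batch difference had an adjusted p under 0.05 by edgeR's quasi-likelihood test. Plk1, Mybl2 and Foxm1 lie at the far left, and Nusap1 and Ccnb2 at the lower right.

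The rest of the mitotic machinery was read from lists of further genes of the pathway. Of 20 other kinetochore and checkpoint genes tested, 2 fell and 0 rose with batch as a term, with a median log2 fold change of -0.16 and 17 of 20 negative. Over all genes 3.63% fell, 2.87% rose and 47.9% were negative in that fit, and the same shares are the background of the lists that follow. Knl1, the kinetochore scaffold that recruits Bub1, read 181, 189.9 and 184 CPM in controls and 135, 144 and 118 CPM in knockouts, without overlap, at -0.47 (adjusted p = 0.0428, edgeR). Ska1, part of the complex that couples kinetochores to microtubules, read 17.5, 19.8 and 28.3 CPM against 13.7, 18.6 and 16.9 CPM, at -0.56 (adjusted p = 0.0482, edgeR).

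All 18 condensin and cohesin genes tested were negative, where 47.9% of all genes were, with a median of -0.25, and 2 fell (3.63% of all genes) while 0 rose (2.87%). Ncapg, a condensin subunit, read 215, 231 and 302 CPM in controls and 158, 237 and 191 CPM in knockouts, at -0.50 (adjusted p = 0.0428, edgeR with the batch term). Sgo1 (shugoshin, which shields centromeric cohesin) read 70.7, 75.1 and 78.2 CPM in controls and 48.1, 64.1 and 50.7 CPM in knockouts, without overlap, at -0.52 (adjusted p = 0.0439, edgeR with the batch term). Of 14 genes tested for the anaphase-promoting complex, an inhibitor among them, 1 fell and 0 rose, with a median of -0.20. That gene was the subunit Cdc16, with 102, 104 and 139 CPM in controls and 78.2, 109.5 and 98.9 CPM in knockouts, at -0.41 (adjusted p = 0.0401, edgeR with the batch term). Fbxo5 (Emi1, the inhibitor) read 77.8, 76.9 and 57.3 CPM against 57.5, 54.4 and 50.8 CPM, at -0.28 (adjusted p = 0.129, edgeR with the batch term).

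A few genes of the same pathways rose in the knockouts. Of 23 other spindle and cytokinesis genes, 2 rose and 0 fell with batch as a term, while their median was -0.17. Psrc1, which encodes a spindle protein and is a known p53 target, read 6.67, 7.72 and 26.2 CPM in controls 1, 2 and 4 and 26.9, 80.1 and 155 CPM in knockouts 1, 4 and 5, at 2.04 (SE 0.25, adjusted p = 0.0168, edgeR). Kifc1, a minus-end kinesin that clusters centrosomes, read 39.3, 37.9 and 35.4 CPM against 54.8, 50.6 and 47.8 CPM, at 0.49 (adjusted p = 0.0337, edgeR with the batch term). In both, each knockout lay above every control.

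Among 16 kinases, phosphatases and brakes of G2/M, 3 rose and 1 fell, with a median of -0.08. Gtse1, which holds p53 down in G2, read 38.1, 32.7 and 33.9 CPM in controls and 79.1, 72.4 and 78.7 CPM in knockouts, at 1.16 (SE 0.10, adjusted p = 0.00984, edgeR with the batch term). Trp53, the gene of p53, read 45.8, 36.3 and 23.4 CPM against 71.7, 31.7 and 34.6 CPM, overlapping over all libraries, at 0.65 (adjusted p = 0.0366, edgeR with the batch term). Ccng1 (cyclin G1, a p53 target), named after its values were seen, read 175, 183 and 420.4 CPM against 295, 636 and 1058 CPM, at 0.87 (adjusted p = 0.0443, edgeR with the batch term). These 3 genes rose while no member of the mitotic list did. Ccng2 (cyclin G2, linked to cell cycle exit) fell, from 42.6, 57.7 and 155.8 CPM in controls to 24.1, 68.8 and 51.3 CPM in knockouts, at -1.22 (adjusted p = 0.0178, edgeR with the batch term). Cdkn1a, which encodes the CDK inhibitor p21, read 13.2, 14.0 and 40.1 CPM against 26.1, 33.7 and 60.1 CPM, at 0.57, and did not pass the test (adjusted p = 0.161, edgeR with the batch term). The calls of these wider lists also depended on which libraries were in the fit. Without control 4, the only control of batch B, or without knockout 1, the only knockout of batch A, edgeR with the batch term called 0 of all genes. With each of the 6 libraries left out in turn, Gtse1, Psrc1 and Ccng2 were called in 3 of the 6 fits, Knl1, Ncapg, Sgo1, Cdc16, Kifc1 and Trp53 in 2, and Ska1 and Rfc3 in 1.

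**Figure D5:**
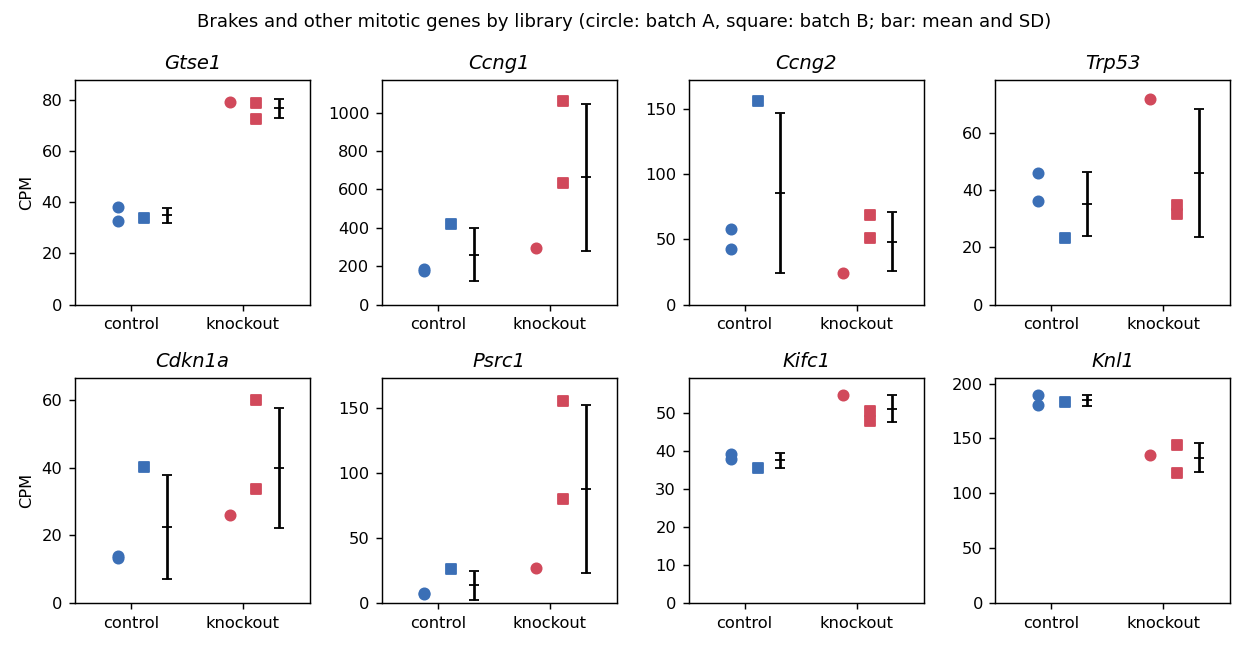
Level in CPM (vertical axes, each from 0) of 8 genes of the wider pathway in every library, with blue for controls, red for knockouts, circles for batch A, squares for batch B and black bars for the group mean and SD (n = 3). Gtse1, Psrc1 and Kifc1 lie higher and Knl1 lower across the knockouts than across the controls with no overlap, while the groups overlap for Ccng1, Ccng2, Trp53 and Cdkn1a.

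The DREAM and MuvB complex genes switch the mitotic promoters between their silent and active states. Of 14 tested, edgeR with the batch term called 0, and their median was 0.03. At an unadjusted p under 0.05 it passed 2, both higher in the knockouts, where 15% of all genes were higher. Those 2 were Mybl1 (A-Myb), at 7.37, 8.17 and 11.2 CPM in controls and 10.7, 24.6 and 36.9 CPM in knockouts, and Lin37, at 9.90, 9.62 and 12.1 CPM against 13.3, 13.6 and 15.3 CPM. Their log2 fold changes were 0.97 and 0.34 (that of Lin37 was -0.12 under ERCC scaling), with adjusted p of 0.0669 and 0.148 (edgeR with the batch term). The 26 genes of DNA replication and G1/S, the phase before, had a median of -0.18, near the -0.20 of the mitotic genes, with 1 lower and 0 higher. That gene was Rfc3, a subunit of the clamp loader, at 62.6, 64.0 and 88.1 CPM against 50.7, 67.4 and 59.3 CPM, a log2 fold change of -0.40 (adjusted p = 0.0496, edgeR with the batch term). Mcm7, of the replicative helicase, read 453, 455 and 461 CPM against 351, 353 and 264 CPM, at -0.48 (adjusted p = 0.0659, edgeR with the batch term).

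The authors' deposited table also compares the activated libraries, and it put most members on the same side. In the authors' deposited table this comparison is given as control over knockout on the log2 scale, and 32 of the 34 values were positive, from -0.09 to 0.33 with a median of 0.08. None of the 34 was past 0.05 in the authors' deposited table (smallest adjusted p 0.142, of Aurkb), where 2.95% of genes were lower and 3.15% higher in knockouts. Top2a was at 0.24, Ckap2 at 0.14 and Nusap1 at 0.07 in the authors' deposited table, and Kif23 and Cdc25c were the pair below 0. The column names give the groups compared and not the libraries. The activated libraries used here are part of the same deposited table, so the values are not taken as independent.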

How the data were processed

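Stranded RNA-seq libraries depleted of ribosomal RNA were made from 6 cultures of activated CD4 T cells, per the labels' protocols. The submitters' processing notes name STAR, featureCounts, DESeq, DESeq2 and build GRCm38.p3, with no strand setting. The deposited table holds raw gene counts per library, made by the authors. The same table holds the authors' log2 fold changes and adjusted p-values, whose settings the labels do not state. The 12 per-sample columns of no listed sample were not used, and 92 ERCC spike-in rows, 0.566% to 1.35% of counts, stayed out of library sizes and tests.

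Counts were tested with edgeR 4.0.16 (filterByExpr, minimum count 10 and total 15, leaving 15685 genes; TMM scaling; quasi-likelihood F test; Benjamini-Hochberg over all genes; threshold 0.05), on genotype alone and with the column-name batch as a term. Inside-batch values used the spread pooled over all 6 libraries. CPM are on TMM library sizes, and CPM per kilobase use the gene lengths in the authors' table. Gene positions are from GENCODE M21, which matched 31 of the 34 IDs. The scripts were tested on simulated data. The members, the lists and the tests were chosen with earlier results of these data known. Values in every library are given for the most abundant member and the member with the smallest p in each role group, the 2 genes with the smallest p in each pathway list, the most abundant gene of each marker list (some as ranges), Prmt5, Cdkn1a, Trp53 and Psrc1. The test of 1 marker gene is not reported here. Alternatives were RLE and ERCC scaling, no filter, DESeq2 1.42.0, limma-voom (limma 3.58.1), leaving out libraries, each batch alone and a replicate block.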

Additional observations from a re-analysis of the deposited data

How the results depend on the processing

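The direction of the members' median, knockout over control, held in both fits under every alternative run except genotype alone without knockouts 1 and 5, where it was 0.0227. Those libraries were left out together after the data had been seen. With 3 libraries a group, no genotype call with batch held in every fit that left out 1 library (0 of all genes were called without control 4 or without knockout 1). Control 4 is the only control of batch B and knockout 1 the only knockout of batch A. Without either of them, 1 batch holds no genotype contrast, so this loss of calls follows in part from the design. Changes of the members' size could be missed. No neutrophil marker was tested. The cause of each change listed here was not tested, unless fewer samples or more genes in the fit are named.

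Scaling to the ERCC spike-ins moved the median of all genes from 0.01 to -0.59 on genotype alone, from 0.02 to -0.44 with batch as a term and from 0.02 to -0.30 for batch B over A, and the members' medians to -0.75, -0.67 and -0.16. Relative to all genes the members then lay at -0.16, -0.23 and 0.14. It called 212 genes lower and 61 higher on genotype alone, 316 and 77 with batch, and 971 and 177 between batches, with 0 members lower in knockouts and 0 higher in batch B. The signs of Cdc25c, Kif23 and Foxm1 turned under it, to -0.34, -0.43 and -0.62 on genotype alone and to -0.43, -0.35 and -0.21 with batch. Kifc1 (-0.16), Trp53 (-0.26) and Lin37 (-0.16) turned on genotype alone, and Lin37 (-0.12) also with batch.

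Without the filter on low counts, 227 genes were lower and 493 higher on genotype alone, and 1392 and 1552 with batch, with 8 members lower. DESeq2 called 190 lower and 252 higher on genotype alone, and 1271 and 1090 with batch, with 6 members lower (Ccnb2, Bub1, Aurkb, Nusap1, Ckap2 and Top2a). RLE scaling and limma-voom with batch called Nusap1, Ckap2 and Top2a.

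Same-numbered libraries exist for numbers 1 and 4, and their deviations correlated at 0.584 and 0.425, but each also shares a batch, and control 2 correlated at 0.400 with knockout 1. The numbers are therefore not taken as pairs. A fit with the replicate block called 318 genes lower and 216 higher and 0 members, with a members' median of -0.11. Under the block Plk1 (0.0018), Birc5 (0.0764), Cenpf (0.0011) and Cdc20 (0.0484) turned positive.

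In batch A alone Plk1 (0.31), Cdc20 (0.0194) and Mybl2 (0.0571) were positive, and in batch B alone Cdc25c was -0.0041. Without knockouts 1 and 5, where 1 knockout is left and the spread with batch comes from controls 1 and 2 alone, 741 genes were past the threshold as higher with batch and 11 members as higher in batch B, which says nothing about stability. On genotype alone the values then turned to 0.0612 for Ccnb1, 0.0921 for Ccnb2, 0.11 for Aurka, 0.28 for Ttk, 0.17 for Birc5, 0.0451 for Cdca8, 0.13 for Ndc80, 0.0615 for Cenpf, 0.0255 for Kif4, 0.0586 for Tpx2, 0.0199 for Nusap1, 0.0613 for Hmmr, 0.0666 for Kif20a, 0.10 for Prc1, 0.14 for Cdc20, 0.0405 for Ube2c, -0.27 for Foxm1 and -0.15 for Trp53. With batch they turned to 0.14 for Birc5, 0.0615 for Ndc80, 0.0161 for Kif20a, 0.0889 for Cdc20 and -0.25 for Cdkn1a.

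Leaving out each library in turn gave 0 to 9 members lower with batch, 0 to 994 genes lower and 0 to 1062 higher, and for the batch difference 1 to 10 members higher, 0 to 3 lower, 592 to 2550 genes higher and 692 to 2652 lower. The members' medians ran from -0.29 to -0.10 on genotype alone and from -0.31 to -0.14 with batch. On genotype alone the values ranged from -0.11 to 0.058 for Birc5, -0.46 to 0.0328 for Ccnb2, -0.26 to 0.13 for Ttk, -0.39 to 0.0847 for Nusap1, -0.33 to 5e-04 for Hmmr, -0.33 to 0.20 for Foxm1, -0.10 to 0.62 for Trp53, -0.79 to 0.0323 for Plk1 and -0.14 to 0.0669 for Cdc20. With batch they ranged from -0.0265 to 0.0763 for Cdc25c, -0.41 to 0.30 for Plk1, -0.13 to 0.0454 for Cdc20, -0.24 to 0.0481 for Mybl2 and -0.11 to 0.033 for Birc5.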
